A study of Mus musculus with 7 samples.

Results

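The clustered histone genes are the 67 genes, of 32285 in the annotation of the deposited matrices, whose symbols begin with Hist1h, Hist2h, Hist3h or Hist4h. They were chosen by symbol alone, with no measured value. The Hist1 group held 54 of them, all on chromosome 13, the Hist2 group held 10 on chromosome 3, the Hist3 group held 2 on chromosome 11, and Hist4h4 lay alone on chromosome 6. By protein, 6 encode H1, 18 encode H2A, 18 encode H2B, 12 encode H3 and 13 encode H4.

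The data were 7 droplet single-cell RNA libraries from C57BL/6J mouse livers, NEJ634, NEJ638, NEJ654, NEJ677, NEJ687, NEJ709 and NEJ723. The study bred ABC-Myc mice, in which Alb-Cre removes a floxed STOP cassette and so turns on CAG-driven human c-MYC in hepatocytes, with littermates lacking one or both transgenes as controls. By the study's account, tumors gave NEJ723, NEJ709, NEJ687 and NEJ634. It describes the other animals as healthy controls. The labels, from which groups were taken here, give every library the same hepatoblastoma model, so 0 groups were formed, no test was run, and the age of each mouse is not given in the sources used here. Alb-Cre is meant to limit the transgene to the hepatocyte lineage, and which cells expressed it was not examined here.

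The libraries held 40214395 to 132485391 UMIs (unique molecular identifiers, each standing for one captured RNA molecule) and gave 72528 analysed cells, from 6716 in NEJ638 to 16976 in NEJ634. Levels are UMIs per 1000000 UMIs of a pool of cells (CPM). Each is given with an exact 95% Poisson interval where that helps, and shares have exact Clopper-Pearson intervals in the same way. These intervals cover counting error only. Between 11 and 191 barcodes were shared by each pair of libraries among the kept cells. NEJ709 stood apart, since 12617 of its 13898 cells fell in 1 cluster that could not be named. Mitochondrial genes led that cluster together with the red cell membrane genes Dmtn, Kel, Rhag and Ank1, and haemoglobin made up 27.4% of its UMIs. The labels describe NEJ709 under another library's name, NEJ634, in one field. Free RNA, estimated from markers of other classes, made up 6.45% to 17.6% of the UMIs in cells.

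Clustered histone genes supply the histones that package newly copied DNA, and dividing cells use them mainly during S phase. Their RNAs are unusual in that most end in a short stem-loop instead of a poly(A) tail, and stem-loop binding protein (Slbp) holds that structure while the RNA is processed, translated and finally destroyed. The replacement variants, such as H3f3a, H3f3b and H2afz, are encoded elsewhere, carry a poly(A) tail and are used all through the cell cycle. Red cell precursors divide several times while they fill with haemoglobin, then condense and expel the nucleus, so the last precursors no longer copy DNA. The kit used here starts its copies at runs of A, which makes the 3′ ends of these RNAs relevant to every value below.

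The 3′ ends of 8 members that the results turn on are shown first, read from the GENCODE M21 transcript models (GRCm38). Each line is 30 bases, 5′ to 3′ on the RNA strand, with the 16 bases of the stem-loop in capitals.
Hist1h2ap: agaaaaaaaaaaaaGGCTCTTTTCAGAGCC
Hist1h2ae: gtaaaaaaaacaaaGGCTCTTTTCAGAGCC
Hist1h4d: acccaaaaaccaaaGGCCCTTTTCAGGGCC
Hist1h1e: cccaacaacccaaaGGCTCTTTTCAGAGCC
Hist1h3c: gctatttaaaaaaaGGCTCTTTTAAGAGCC
Hist2h2ac: cacgaatccaaaaaGGCTCTTTTTAGAGCC
Hist1h1c: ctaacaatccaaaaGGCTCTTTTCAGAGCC
Hist4h4: cccccatccacaaaGGCCCTTTTCAGGGCC

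All 8 lie in the 3′ untranslated part of the gene, beginning 22 to 55 bases after the stop codon for the capitals. Hist1h2ap lies at chr13:21833026-21833507 and Hist1h2ae at chr13:23570517-23571220, both on the minus strand. Hist1h4d is at chr13:23581598-23582735 on the plus strand, Hist1h1e at chr13:23620629-23622558 on the minus strand, Hist1h3c at chr13:23744973-23745602 on the minus strand and Hist1h1c at chr13:23738808-23740367 on the plus strand. Hist2h2ac is at chr3:96220361-96220880 and Hist4h4 at chr6:136801553-136804415, both on the minus strand. The letters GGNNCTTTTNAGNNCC, searched on the RNA strand after the stop codon, were found in 43 of the 67 members. Over any part of any transcript they were found in 89 of 55450 genes (0.161%). Several of the other 24 members, among them Hist1h1b at chr13:21779883-21780625, have a model that ends at the stop codon, so that these letters could not be in it. The 14 bases before the stem-loop held 13 A in Hist1h2ap and 11 in Hist1h2ae, against 5 in Hist4h4. The part that such runs of A played in the levels was not tested.

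Some models have a second kind of end, either past the stem-loop or, as in Hist2h2be, with no stem-loop found. The letters AATAAA or ATTAAA, the usual polyadenylation signal, stood in the last 50 bases of 17 models, against 33.7% of all transcripts of the annotation, including those of Hist1h2ae, Hist1h4h, Hist1h4i, Hist1h1c, Hist3h2a, Hist3h2ba, Hist2h2be and Hist4h4. In Hist4h4 the model went on for 2445 bases after the stem-loop, and in Hist3h2a for 1643. Hist1h2bc, an H2B gene at chr13:23684199-23692908 on the plus strand, has a spliced model of 1156 bases with no stem-loop after its stop codon. Near-identical members share reads, and the counting drops or splits such reads. In 30 members at least 50% of the 75-base windows in the last 300 bases were also present in another gene, and in 22 members none were. The values of Hist1h2ap and Hist1h2ao, Hist1h2bq and Hist1h2br, Hist1h4m and Hist1h4n, Hist1h3e and Hist1h3f, Hist2h2aa1 and Hist2h2aa2, and of Hist1h1e, whose end overlaps Hist1h2be, are uncertain for this reason.

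The promoters also carry marks of the families, and are shown for an H1, a pair of H2A and an H4 gene. They are the 120 bases before the RefSeq start (GRCm38.p6), 5′ to 3′ on the gene's strand, with CCAAT (or ATTGG) and TATAAA in capitals.
Hist1h1b: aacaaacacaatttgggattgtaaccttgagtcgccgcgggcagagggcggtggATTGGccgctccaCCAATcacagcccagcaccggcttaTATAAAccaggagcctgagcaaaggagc
Hist2h2ac: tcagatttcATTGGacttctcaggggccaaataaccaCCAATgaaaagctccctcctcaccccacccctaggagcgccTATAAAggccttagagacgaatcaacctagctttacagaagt
Hist1h2ae: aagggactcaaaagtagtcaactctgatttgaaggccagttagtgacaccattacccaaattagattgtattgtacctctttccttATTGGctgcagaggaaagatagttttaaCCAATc
Hist1h4d: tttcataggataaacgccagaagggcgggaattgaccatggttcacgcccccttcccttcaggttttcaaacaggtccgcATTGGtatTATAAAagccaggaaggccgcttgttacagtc

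These windows are chr13:21780626-21780745, chr3:96220881-96221000 and chr13:23571221-23571340, all on the minus strand, and chr13:23581448-23581567 on the plus strand. Of the 67 members, 62 had a RefSeq promoter of 300 bases. With both strands searched, CCAAT stood in 85.5% of them and in 37.4% of all 32851 promoters. It was found in every promoter of the H1, H2A, H2B and H3 members but in 25.0% of those of H4. TATAAA was found in 56.5% of the members and in 13.6% of all promoters. The octamer ATGCAAAT stood in 22.6% of the members, against 1.74% of all promoters, in 38.9% of H2A and 43.8% of H2B promoters and in none of the others. There were 19 pairs of members transcribed away from each other, and the gaps between H2A and H2B starts were short enough that the windows of such a pair overlap and the same match can count for both.

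Every member had a UMI in at least 1 library, and 62 to 67 were detected in each. Only 5 had under 100 UMIs in all libraries together, and 3 had under 10, namely Hist1h2bq, Hist1h2ba and Hist2h2aa2. Over all analysed cells, the summed level of the 67 members was 2507 CPM (2495 to 2520) in NEJ634 and 799 (786 to 812) in NEJ638, with 827 (815 to 840) in NEJ654, 689 (680 to 699) in NEJ677, 4405 in NEJ687, 2687 (2672 to 2701) in NEJ709 and 2487 (2476 to 2498) in NEJ723. The 4 libraries the study names as tumors were the 4 highest, and the highest was 6.39 times the lowest. With 1 library of each mouse, a difference between libraries cannot be told apart from one between mice, and their cells were also of different kinds. Leaving out the unnamed cluster of NEJ709 gave 5590 CPM there. The level in the profile of free RNA, from barcodes with few UMIs, was 2006 in NEJ634 and 355 in NEJ638, with 1100 in NEJ654, 681 in NEJ677, 2571 in NEJ687, 1607 in NEJ709 and 942 in NEJ723. In NEJ654 the free RNA was above the cells. In NEJ634 the barcodes behind that profile held 210 to 952 UMIs, so it may include cells.

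The cells were split into classes by clustering without the members, and clusters were named from markers. Erythroid-like cells are clusters 7 and 9. Cluster 7 was led by Car1, Klf1, Gfi1b, Hemgn, Rhd and Gata1, genes of early red cell precursors, had 11 of 17 erythroid markers raised and took 17.7% of its UMIs from haemoglobin. Cluster 9 was led by Slfn14, Tmcc2, Trim10 and Epb42, had all 17 markers raised and took 65.2% from haemoglobin. Together they held 6254 cells, 213 in NEJ634 and 62 in NEJ638, with 252 in NEJ709, 2903 in NEJ723 and 2807 in NEJ687. NEJ654 had 12 such cells and NEJ677 had 5, fewer than the 20 set as a minimum, so neither has a value for this class. Clusters 1, 3, 5 and 6 also had erythroid as their best class but stayed unnamed, because the mean log2 fold of their erythroid markers, 1.45, 1.48, 0.922 and 0.688, was under the limit of 1.5, which was set after the data were seen. Clusters 1 and 6 also missed the lead of 1 over the class ranked next, which was at 0.575 (granulocyte precursor) and 0.649 (neutrophil). They had 16, 12, 8 and 6 of the markers raised. Cluster 1 is the one that holds most of NEJ709, and haemoglobin was 77.8% and 88.6% of the UMIs in clusters 3 and 5.

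With their UMIs pooled, erythroid-like cells had the highest summed level of clustered histone RNA of any named class in all 5 libraries where they could be measured, but this did not hold for the median cell. The pooled level was 12225 CPM (12084 to 12368) in NEJ634 and 16162 (15640 to 16697) in NEJ638, with 15145 (15003 to 15289) in NEJ709, 5760 (5730 to 5790) in NEJ723 and 7631 (7599 to 7664) in NEJ687. The class ranked next was B-like cells in NEJ634 (3632 CPM) and NEJ638 (2177), cholangiocyte-like cells in NEJ709 (5611) and NEJ687 (3962), and megakaryocyte-like cells in NEJ723 (2238), and no interval of these reached the erythroid one. The top 10% of these B-like cells held 85.6% and 92.7% of the histone UMIs, and their median cells had 516 and 0 CPM. For the other classes the share was 81.7% in NEJ709, 56.1% in NEJ687 and 74.0% in NEJ723. The 136 cholangiocyte-like cells of NEJ709 had a median of 948.0 UMIs, against 9009 in its erythroid-like cells. This class was not the same kind of cell throughout. In NEJ709, NEJ723 and NEJ687 it came almost wholly from cluster 11, led by Cldn7, Cldn6 and Igf2bp1. In NEJ634 it came mostly from cluster 30, led by Spp1. Against all remaining cells of the same library, the erythroid-like level was 5.75 times as high in NEJ634 and 26.7 times in NEJ638, with 7.83 times in NEJ709, 5.93 times in NEJ723 and 6.66 times in NEJ687. With unnamed clusters left out of the remaining cells these folds were 6.92, 23.1, 6.25, 5.0 and 5.85.

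A minority of cells carried much of the pooled level. The top 10% of erythroid-like cells held 49.9% of the histone UMIs in NEJ634 and 35.9% in NEJ638, with 43.1% in NEJ709, 43.4% in NEJ723 and 40.9% in NEJ687. The median erythroid-like cell had 2046, 9188, 1702, 1399 and 2223 CPM in the same order. It was the highest of the named classes in NEJ638 and NEJ723. In NEJ634 it was under the median basophil- and mast-like cell (3661 CPM), megakaryocyte-like cell (2694), granulocyte precursor (2333) and dendritic-like cell (2168). In NEJ709 it was under the median cholangiocyte-like cell (1905) and granulocyte precursor (1774), and in NEJ687 under the median megakaryocyte-like cell (2286). After thinning to 500 UMIs, 63.4% of erythroid-like cells had a member UMI in NEJ634, against 83.0% of basophil- and mast-like cells, 78.4% of megakaryocyte-like cells and 66.9% of granulocyte precursors. In the other 4 libraries the erythroid-like share was the highest of the named classes, at 66.1% in NEJ638, 64.7% in NEJ709 (next 64.0%), 65.9% in NEJ687 (next 64.3%) and 56.4% in NEJ723 (next 51.8%). Only in NEJ723 did its interval (54.6% to 58.2%) lie clear of that of the class ranked next, cholangiocyte-like cells (49.7% to 54.0%). Even there it overlapped that of the 129 megakaryocyte-like cells (50.4%, 41.5% to 59.3%).

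**Figure D1:**
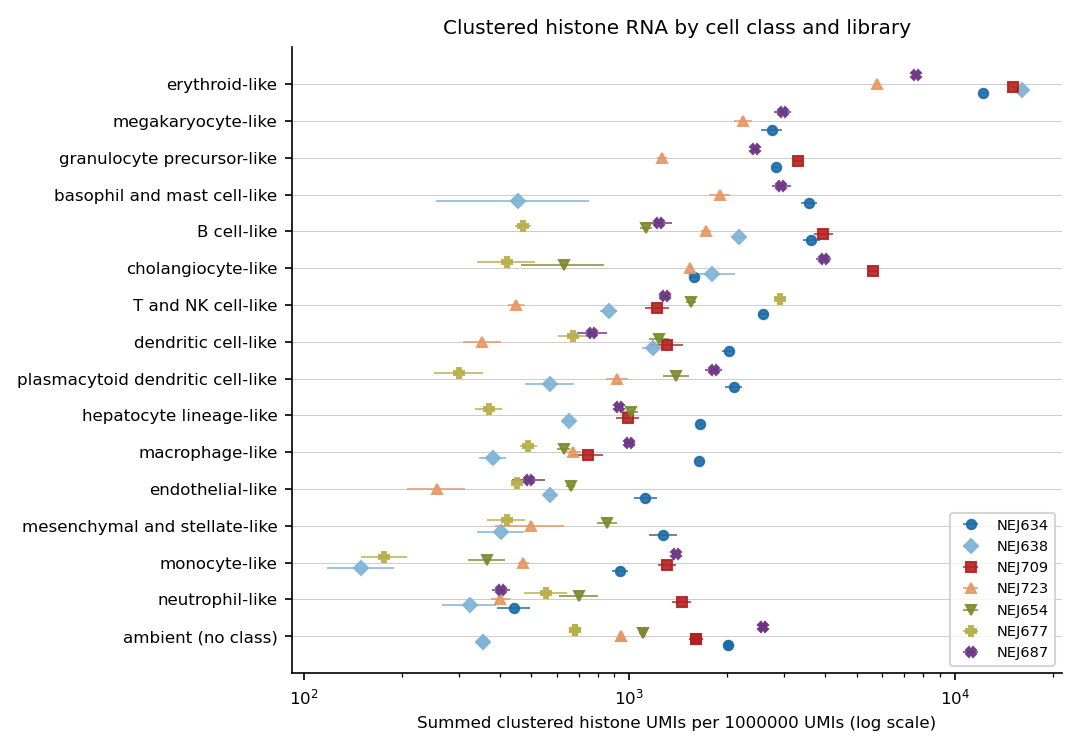
Summed UMIs of the 67 clustered histone genes per 1000000 UMIs (log scale) for each cell class with at least 20 cells, 1 point for each library with its exact 95% Poisson interval, and with free RNA in the last row. The erythroid-like points, from 5760 to 16162, lie to the right of every other named class of the same library, as pooled levels and not as levels of the median cell.

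This result rested on how red cells were grouped. In NEJ709 it depended on leaving cluster 1 unnamed. With that cluster counted as erythroid-like, the level there was 2776 CPM in place of 15145, under that of cholangiocyte-like cells, the fold was 1.25 in place of 7.83, and 2 members in place of 59 were at least 2-fold higher. The folds of NEJ634, NEJ638, NEJ723 and NEJ687 were then 5.25, 26.3, 5.89 and 6.66. With clusters 1, 3 and 5 all counted, the folds were 4.51 in NEJ634 and 4.93 in NEJ687, with 3.34 in NEJ723, 1.88 in NEJ638 and 0.999 in NEJ709. Cluster 6, which had 3402 cells in NEJ634, was not counted as erythroid-like in any of these. With a separate clustering of each library, the fold stayed above 1 in 4 of those libraries (4.81 in NEJ634 and 24.3 in NEJ638, with 8.68 in NEJ709 and 4.15 in NEJ687) but was 0.436 in NEJ723. There the class then held 1551 cells at 64.2% haemoglobin and 1149 CPM, and 1329 of the 1396 cells of cluster 7 were left unnamed. In NEJ654 and NEJ677 the same step named 485 and 340 cells at 88.7% and 92.2% haemoglobin, whose folds were 0.281 and 0.0798. Haemoglobin share alone did not separate high from low levels, since in NEJ709 cluster 1 stood at 1875 CPM with 27.5% haemoglobin and cluster 7 at 22375 CPM with 24.5%. Their mitochondrial shares were 11.6% and 1.86%, and their median UMI counts 2187 and 12451.

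Among the other classes, the levels were lower and their order varied. Neutrophil-like cells, which have stopped dividing, ranged from 324 to 1450 CPM with a median of 442 over 7 libraries. Few cells carried the 1450 of NEJ709, where the top 10% held 82.9% of the histone UMIs and the median cell had 302 CPM. Hepatocyte-lineage cells ranged from 370 to 1657 with a median of 961 over 6 libraries, but were not the same kind of cell throughout. In NEJ634 (1657 CPM), NEJ687 (931) and NEJ709 (991) they came mostly from cluster 2, led by H19, Igf2 and other genes such as Cdkn1c. In NEJ638 (653), NEJ654 (1010) and NEJ677 (370) they came mostly from cluster 22, led by Serpina3k and the cytochrome genes Cyp2c29 and Cyp2f2. Macrophage-like cells ranged from 381 to 1640, monocyte-like cells from 150 to 1398, and endothelial-like cells from 256 to 1122. Granulocyte precursors were at 1262 to 3311 and megakaryocyte-like cells at 2238 to 2964, above neutrophil-like cells of the same library. In NEJ723 granulocyte precursors (1262) lay under cholangiocyte-like (1541) and B-like cells (1725). Within the B-like cells, cluster 27, led by the pre-B cell genes Igll1, Vpreb1 and Rag1, reached 6944 CPM in NEJ634 and 9307 in NEJ638, with 5604 in NEJ709, 2068 in NEJ723 and 2676 in NEJ687. Few cells carried these values. The cluster held 23, 68, 27, 365 and 42 cells, the median cell had 450, 723, 560, 504 and 855 CPM, and the top 10% of cells held 64.6%, 60.7%, 91.4%, 78.5% and 69.5% of the histone UMIs. In NEJ677, which had too few erythroid-like cells, T- and NK-like cells were highest at 2912 CPM (2848 to 2976), but the median cell had 258 CPM and the top 10% of the 812 cells held 93.1% of the histone UMIs. In NEJ654 T- and NK-like cells (1551, 1494 to 1608) and plasmacytoid dendritic-like cells (1395, 1271 to 1527) led with intervals that overlapped, and the top 10% of the T- and NK-like cells held 84.7% there.

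Most members shared the pattern one by one. Of those with at least 20 UMIs over both pools, 55 of 61 were at least 2-fold higher in erythroid-like than in remaining cells of NEJ634, where 14.3% of all genes were. The counts were 46 of 48 in NEJ638 (29.2% of all genes), 59 of 61 in NEJ709 (14.7%), 58 of 62 in NEJ723 (10.7%) and 60 of 61 in NEJ687 (13.2%). These counts follow the naming of clusters, since 1 member in place of 58 was at least 2-fold higher in NEJ723 with a separate clustering of the libraries, and 2 in place of 59 in NEJ709 when cluster 1 was counted as erythroid-like. With clusters 1, 3 and 5 counted, 17 in place of 46 were in NEJ638. Their median fold was 6.39, 17.7, 7.97, 5.93 and 6.27 in the same order, where that of all genes was 0.766, 0.901, 0.813, 0.574 and 0.701. The members that did not pass the filter of 20 UMIs are in neither count. In NEJ638 the erythroid-like pool held only 224234 UMIs. A gene at 0 UMIs there was set to 3, which can by itself count as 2-fold higher. A single member, Hist2h3c2 in NEJ634, was at least 2-fold lower, at 0.451 (0.0921 to 1.34) and from 3 UMIs, where 35.6% of all genes were. None was in NEJ638, NEJ709, NEJ723 or NEJ687, where 32.2%, 33.2%, 45.6% and 41.5% of all genes were.

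**Figure D2:**
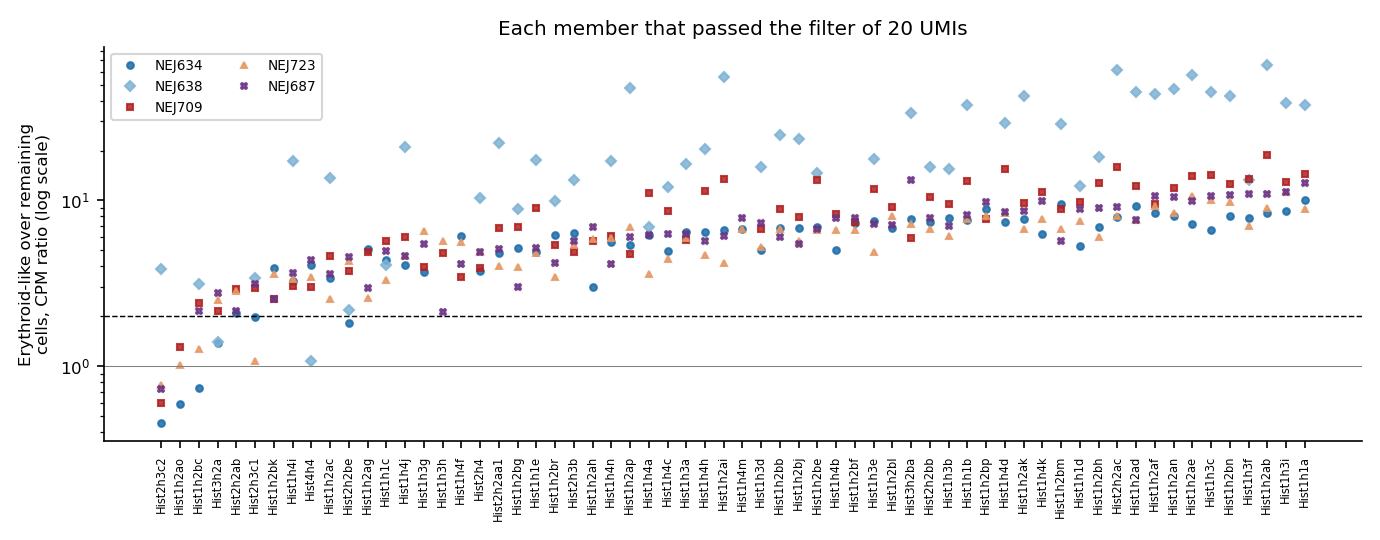
Ratio of CPM in erythroid-like cells to that in the remaining cells (log scale) for each member that passed the filter of 20 UMIs, with members ordered by their median and 1 symbol for each library. Most points lie above the dashed line at 2-fold, the NEJ638 points lie highest, and Hist2h3c2, Hist1h2ao, Hist1h2bc and Hist3h2a stand at the low end.

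The H2A genes held the largest share in 4 of the 5 libraries. Levels of different genes are compared here without dividing by length, because the kit is built to count 1 end for each molecule. RNAs without a poly(A) tail may be counted to an unlike extent from gene to gene, so the order is one of counted UMIs. The part that capture played in it was not tested. Hist1h2ae, an H2A gene, was at 2024 CPM in erythroid-like cells of NEJ634 and 6703 in NEJ638, with 3048 in NEJ709, 1028 in NEJ723 and 943 in NEJ687. Hist1h2ap, the H2A gene shown above with 13 A before its stem-loop, was at 2178, 2645, 3605, 1085 and 606 in the same order of libraries. Both were lowest in NEJ687 and in NEJ723, the libraries with the most erythroid-like cells. Hist2h2ac, an H2A gene of the Hist2 group with no shared window, was at 335, 281, 265, 74.2 and 230, which was 7.98, 61.7, 15.9, 8.0 and 9.14 times its level in the remaining cells. Hist1h2an, a further H2A gene, was at 24.8 to 98.1 CPM.

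Linker histones followed. Hist1h1b, which encodes the H1.5 linker, was at 2065 CPM in NEJ634 and 1088 in NEJ638, with 1172 in NEJ709, 689 in NEJ723 and 1539 in NEJ687. Its fold over the remaining cells was 7.59, 37.7, 13.1, 7.70 and 8.13. Hist1h1e (H1.4) was at 774, 384, 582, 323 and 751 CPM, and Hist1h1a (H1.1) at 552, 263, 453, 176 and 459. The folds of Hist1h1a were 10.0, 37.5, 14.4, 8.85 and 12.7. Hist1h1c (H1.2), whose model runs on to a polyadenylation signal, was at 313, 178, 317, 172 and 321 CPM, and its folds were smaller at 4.36, 4.07, 5.72, 3.32 and 4.98.

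The core histones H3 and H4 lay lower. Hist1h4d, the highest H4 gene, was at 642 CPM in NEJ634 and 540 in NEJ638, with 1039 in NEJ709, 260 in NEJ723 and 495 in NEJ687, at folds of 7.43, 29.4, 15.5, 8.35 and 8.50. The H4 genes Hist1h4h and Hist1h4i were at 81.5 to 361 and at 144 to 205 CPM, and the folds of Hist1h4i were 3.27, 17.3, 3.05, 3.35 and 3.65. Hist1h3c, the highest H3 gene, was at 392, 446, 497, 121 and 197 CPM with folds of 6.59, 44.9, 14.3, 10.1 and 10.6. The other named H3 genes were Hist1h3e, uncertain for its shared end, at 62.6 to 322 CPM and Hist1h3i at 41.8 to 169.

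The H2B genes were divided. Hist3h2ba, the H2B gene of the Hist3 group, was at 80.8 CPM in NEJ634 and 98.1 in NEJ638, with 211 in NEJ709, 119 in NEJ723 and 128 in NEJ687, at folds of 7.75, 33.6, 5.96, 7.18 and 13.3. Hist1h2bj was at 156, 107, 158, 70.3 and 80.8. Hist1h2bc, the highest H2B gene, was at 171, 245, 255, 149 and 289 CPM, yet its folds were 0.741 (0.669 to 0.819), 3.12, 2.40, 1.27 and 2.14. Hist1h2bc was thus lower in erythroid-like than in remaining cells of NEJ634. As a family, H2B had the smallest summed fold in all 5 libraries (3.07, 9.21, 5.83, 3.47 and 4.12), where H3 had 6.58, 21.8, 10.7, 6.61 and 8.07 and H2A had 6.14, 46.5, 7.01, 7.62 and 7.65. The median fold of the H2B genes that passed the filter was not the smallest, at 6.87, 17.1, 7.87, 6.65 and 6.37, where that of H3 was 6.43, 15.7, 6.25, 5.82 and 6.68 and that of H4 was 5.64, 17.3, 7.18, 4.88 and 5.68.

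**Figure D3:**
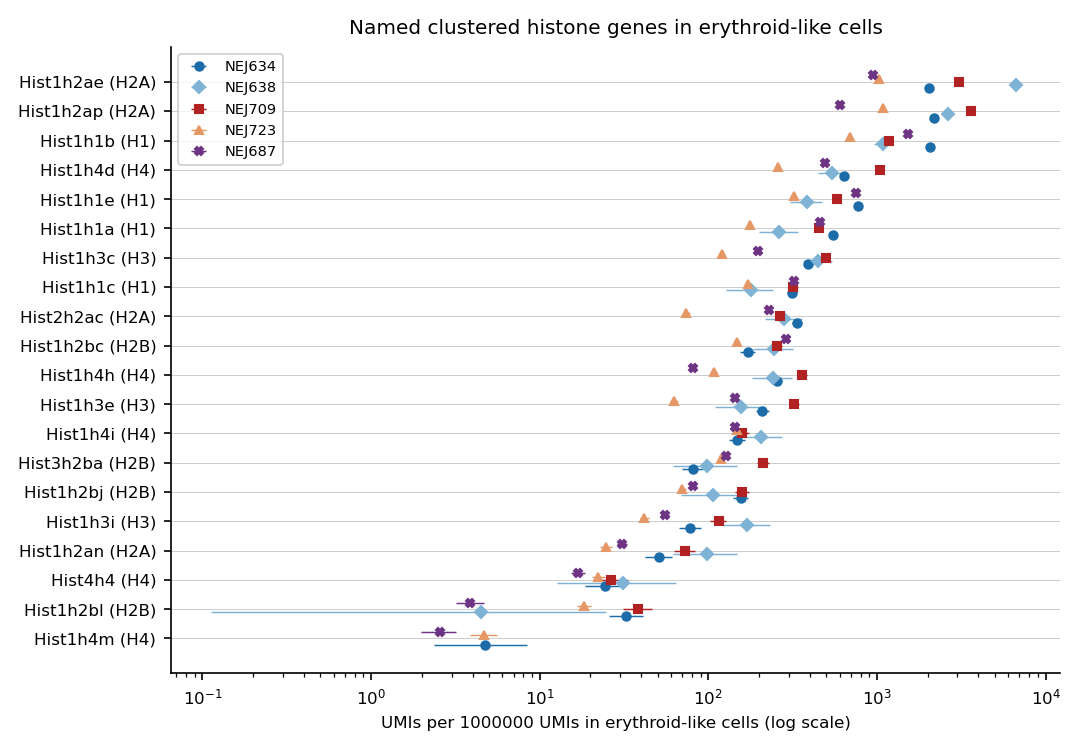
UMIs per 1000000 UMIs in erythroid-like cells (log scale) for the 20 named members, with the family in brackets, 1 symbol for each library and exact 95% Poisson intervals. Hist1h2ae and Hist1h2ap reach 6703 and 3605, and Hist1h4m, which had 0 UMIs in NEJ638 and NEJ709, has no point for those libraries.

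Members whose model ends after a polyadenylation signal had smaller median folds than the others. Among the 17 with the signal, the median erythroid-like fold of those that passed the filter was 4.36 in NEJ634 and 10.2 in NEJ638, with 5.72 in NEJ709, 4.30 in NEJ723 and 4.86 in NEJ687. Among the 50 without it the median was 6.59, 22.9, 8.86, 6.51 and 7.08. Several of the 50, among them Hist1h1b and Hist1h3i, have a model that ends at the stop codon, where no signal could be found. In others, such as Hist1h1d and Hist1h2bc, the letters stand before the last 50 bases, so the split follows the models as annotated. The first set was lower in each of the 5, although the libraries share the same genes and are not independent on this point. The signal set held slightly more of the histone UMIs in erythroid-like cells than over all cells, 25.5% against 24.4% in NEJ634, 48.1% against 45.1% in NEJ638, 30.3% against 26.5% in NEJ709, 31.5% against 31.2% in NEJ723 and 23.4% against 23.3% in NEJ687. That excess came from Hist1h2ae alone. The other 16 members of the set held less in erythroid-like than over all cells of each library, from 11.1% against 11.5% in NEJ687 and 8.95% against 10.6% in NEJ634 to 6.62% against 20.2% in NEJ638, with 10.2% against 12.4% in NEJ709 and 13.7% against 15.5% in NEJ723. The 10 members with at least 10 A within some 12 bases held 39.4% of the histone UMIs of erythroid-like cells in NEJ634 and 62.7% in NEJ638, with 49.9% in NEJ709, 44.4% in NEJ723 and 28.9% in NEJ687. Most of this was Hist1h2ae and Hist1h2ap. Hist1h2ae alone held 16.6%, 41.5%, 20.1%, 17.8% and 12.4% in the same order, and Hist1h2ap 17.8% in NEJ634, 23.8% in NEJ709 and 18.8% in NEJ723. The set also holds Hist4h4, whose run lies elsewhere in its model. Hist1h2ao, with 13 A before its stem-loop like Hist1h2ap, had 144 UMIs in all libraries together.

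The mix of families differed between libraries. In erythroid-like cells H2A made up 41.1% of the histone UMIs in NEJ634 and 65.9% in NEJ638, with 50.2% in NEJ709, 42.4% in NEJ723 and 27.2% in NEJ687. The H1 share moved the other way, at 31.9%, 12.8%, 18.4%, 26.5% and 43.0%. The H3 share stayed between 6.46% and 8.82%, and that of H4 between 7.48% and 12.8%. H2B made up 7.28% to 12.7% in erythroid-like cells and 13.3% to 21.6% in the remaining cells, lower in erythroid-like cells of each library. Within cluster 7 alone, between 12.4% (NEJ634 and NEJ723) and 42.3% (NEJ638 and NEJ687) of the histone UMIs would have to change gene for 2 libraries to match. In NEJ638 Hist1h2ae alone made up 41.5% of the erythroid-like histone UMIs, and its share there was also high in B-like cells (34.5%), dendritic-like cells (31.8%) and T- and NK-like cells (28.6%) but 2.81% in hepatocyte-lineage cells and 15.5% in free RNA.

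**Figure D4:**
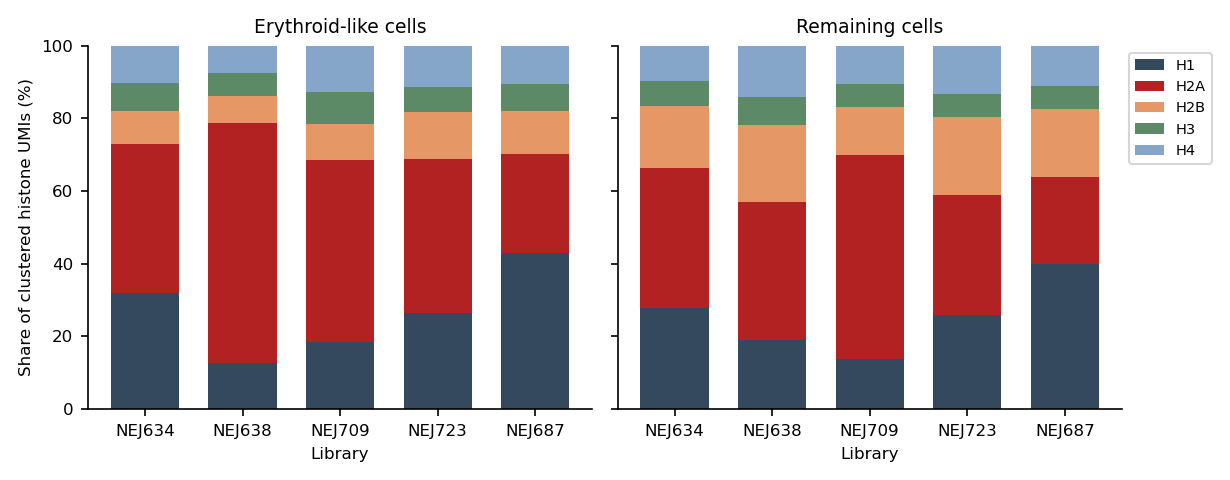
Share of the clustered histone UMIs (%) taken by the families H1, H2A, H2B, H3 and H4, stacked for each of the 5 libraries, in erythroid-like cells on the left and in the remaining cells on the right. H2A is widest in NEJ638 (65.9%), H1 is widest in NEJ687 (43.0%), and the H2B band is narrower on the left in every library.

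The 2 erythroid-like clusters differed several-fold. Cluster 7 was at 14162 CPM in NEJ634, 22375 in NEJ709, 7908 in NEJ723 and 9042 in NEJ687, and at 19152 in NEJ638. Cluster 9 was at 1050 CPM in NEJ634, 1327 in NEJ709, 892 in NEJ723 and 989 in NEJ687, giving folds of 13.5, 16.9, 8.86 and 9.15. With haemoglobin and mitochondrial UMIs left out of the total, cluster 7 was at 16700, 30397, 9824 and 11113 and cluster 9 at 2923, 3800, 2639 and 3072. Most genes were higher in cluster 7, so the counts of members have a high background. Cluster 9 held 67 cells in NEJ634, 130 in NEJ709, 1507 in NEJ723 and 1013 in NEJ687. In NEJ634 the H2A members had 99 UMIs there, against 11600 in cluster 7. A gene could thus pass the filter of 20 UMIs through cluster 7 alone, and a pool at 0 was set to 3 UMIs. The counts are a description only. In NEJ634 45 of 52 members were at least 2-fold higher in cluster 7, where 67.9% of all genes were. The counts were 54 of 54 in NEJ709 (73.3%), 57 of 60 in NEJ723 (72.6%) and 56 of 60 in NEJ687 (74.6%). No member was at least 2-fold lower in cluster 7 in these libraries, where 5.64%, 5.79%, 6.85% and 6.59% of all genes were. The median folds of members were 6.79, 12.2, 9.97 and 9.06, where those of all genes were 3.37, 4.25, 4.19 and 4.89.

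Members differed in this step too. Hist1h4h had folds of 51.1, 38.0, 31.3 and 20.7 between the clusters in NEJ634, NEJ709, NEJ723 and NEJ687, and Hist1h1b had 37.7, 42.1, 16.7 and 21.4. All H4 members together had 41 UMIs in cluster 9 of NEJ634 and 116 in that of NEJ709. The folds of Hist1h4h there rest on few UMIs and are uncertain. Hist1h2ae (23.8, 19.9, 20.6 and 24.3) and Hist1h2ap (21.3, 20, 24.2 and 24.9) had folds that varied little over libraries. Hist1h1c, in contrast, had 4.03, 8.09, 1.45 and 2.88, and Hist1h2bc had 1.69, 5.70, 3.61 and 3.47. In consequence Hist1h1c made up 4.23% to 14.7% of the histone UMIs in cluster 9, against 1.11% to 4.01% in cluster 7. The totals behind all these folds include haemoglobin, which was 65.2% of the UMIs in cluster 9 and 17.7% in cluster 7. With haemoglobin and mitochondrial UMIs left out, each fold would be smaller. That of Hist1h1c in NEJ723 and that of Hist1h2bc in NEJ634 would then change direction. The 17 members with a polyadenylation signal had median folds of 4.17, 8.90, 5.44 and 6.41, and the 50 without it 9.84, 13.1, 10.5 and 9.83.

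The haemoglobin share of each cell gives a finer ordering of red cell precursors. It is not independent of clusters 7 and 9, which stood at 17.7% and 65.2% haemoglobin. Haemoglobin genes were also among the markers that named them. Erythroid-like cells were placed in ranges of haemoglobin share, and the histone level was taken per 1000000 UMIs without haemoglobin. In NEJ634 the level was 11791 under 20% haemoglobin, 34216 at 20 to 40%, 20715 at 40 to 60% and 3200 at 60 to 80%. In NEJ709 it was 13316, 47479, 16245 and 2368 over the same ranges, and in NEJ723 5431, 18416, 11766 and 2758. In NEJ687 it was 6212, 21153, 24951 and 3736, and 2905 over 80%. Among these cells, which are those of clusters 7 and 9 only, the level was highest at 20 to 40% haemoglobin in 3 libraries and at 40 to 60% in NEJ687. The level at 20 to 40% was 10.7, 20, 6.68 and 5.66 times that at 60 to 80% in NEJ634, NEJ709, NEJ723 and NEJ687. In NEJ709 the value at 20 to 40% came from 75 cells, where cluster 1 had 11729 cells in the same range. With cluster 1 added, the levels of NEJ709 were 5501, 3575, 14388 and 2357, so that the highest was at 40 to 60% and the range of 20 to 40% lay under that below it, and the fold of 20 became 1.52. In NEJ634, NEJ723 and NEJ687 the fold was then 8.79, 6.66 and 5.66, and with clusters 1, 3 and 5 added it was 10.3, 9.04 and 5.68, with the highest range as before. NEJ638 had enough cells only at 40 to 60%, where 24 cells stood at 44991. Each of the other ranges held 33 to 985 cells, and their median UMI count was 12363 to 16753 under 20% haemoglobin and 5201 to 8156 at 60 to 80%. It did not fall at every step, being 5294 at 40 to 60% and 6240 at 60 to 80% in NEJ634. The part that depth played in this was not tested.

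**Figure D5:**
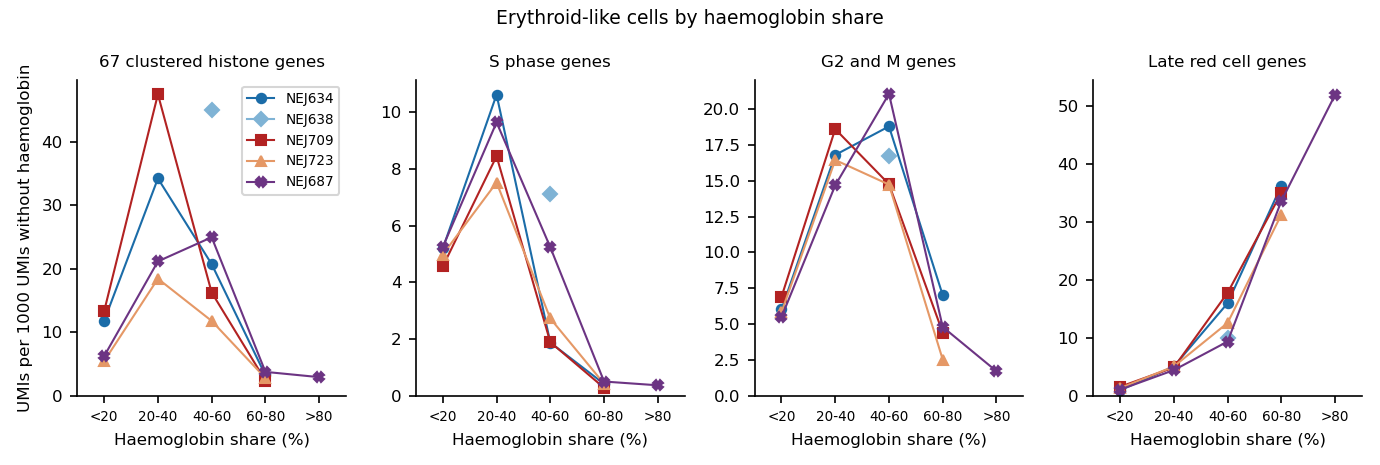
UMIs per 1000 UMIs without haemoglobin in erythroid-like cells, by the share of a cell's UMIs that are haemoglobin, for the clustered histone genes, S phase genes, G2 and M phase genes and late red cell genes, 1 line for each library. The cells are those of clusters 7 and 9, without the unnamed clusters, and among them the histone level stands highest at 20 to 40% or 40 to 60% haemoglobin and is low from 60% on, while the late red cell genes climb to the last range.

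Among the same cells of clusters 7 and 9 the cell cycle lists were also highest at intermediate haemoglobin. The 28 S phase genes summed to 5195, 10621, 1870 and 413 CPM without haemoglobin in NEJ634 over the 4 ranges, to 4559, 8449, 1885 and 273 in NEJ709, to 4979, 7520, 2721 and 417 in NEJ723, and to 5248, 9644, 5234 and 496 in NEJ687. The 26 G2 and M phase genes stayed high for longer, at 6015, 16814, 18808 and 7014 in NEJ634 and at 5478, 14688, 21082 and 4795 in NEJ687. In NEJ687 the histone level was higher at 40 to 60% than at 20 to 40%, while the S phase sum was lower at 40 to 60%. In NEJ709 and NEJ723 they were highest at 20 to 40%, as the S phase genes were in all 4. The 10 late red cell genes were higher in each next range, from 920 to 1527 CPM under 20% to 31299 to 36323 at 60 to 80%. Slbp stood at 328, 1137, 163 and 26.7 CPM in NEJ634, at 319, 738, 174 and 10.7 in NEJ709, at 340, 668, 207 and 24.2 in NEJ723 and at 407, 950, 531 and 48.6 in NEJ687. The replacement gene H3f3b varied less over the ranges, at 2558, 3581, 2496 and 3507 in NEJ634, 2655, 4105, 2724 and 1988 in NEJ709, 2255, 3660, 2337 and 1999 in NEJ723 and 3151, 5391, 5241 and 4014 in NEJ687. It was highest at 20 to 40% in each of them.

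Single members differed over these ranges. Hist1h1b was at 2553, 4326, 1313 and 200 CPM without haemoglobin over the 4 ranges in NEJ634, and at 1655, 4104, 3082 and 314 in NEJ687. Hist1h2ae was at 1732, 6440, 4122 and 307 in NEJ634 and at 625, 2765, 3846 and 303 in NEJ687. Hist1h2bc was highest at 40 to 60% in 3 libraries, one range after the summed level in NEJ634 and NEJ723 and in the same range in NEJ687. It was at 92.8, 437, 882 and 213 in NEJ634, 64.6, 503, 580 and 142 in NEJ723 and 137, 532, 1745 and 399 in NEJ687. In NEJ709 it was at 118, 684, 634 and 150. Hist1h1c kept much of its level in NEJ723 (101, 503, 446 and 407) but was well below its highest value at 60 to 80% in NEJ634 (298, 810, 575 and 280), NEJ709 (179, 1033, 410 and 139) and NEJ687 (198, 910, 1262 and 398, and 698 over 80%). Hist1h1e, at 328, 854, 616 and 419 in NEJ723, was the highest member at 60 to 80% in NEJ709, NEJ723 and NEJ687, and Hist1h1c was the highest over 80%. Hist3h2a was at 10.9, 120, 118 and 188 in NEJ723. H2B made up 7.36% to 9.34% of the histone UMIs under 20% haemoglobin and 14.6% to 18.2% at 40 to 60% in those 4 libraries, although 6.93% in NEJ638.

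Histone levels also varied among cells of 1 cluster. When the cluster 7 cells of each library were split into 3 equal parts by their S phase sum, the summed histone level was 9183, 11717 and 22395 CPM from the lowest to the highest part in NEJ634. It was 11988, 25053 and 31941 in NEJ709, 5278, 8353 and 10578 in NEJ723, and 6563, 8071 and 13206 in NEJ687. Split by the G2 and M phase sum, it was 7124, 15500 and 25390 in NEJ634, 9983, 28655 and 34291 in NEJ709, 3605, 9031 and 15320 in NEJ723, and 3890, 10052 and 16903 in NEJ687. The histone level was thus higher with either sum in all 4 libraries. Haemoglobin share also differed between the parts. By the G2 and M phase sum it went from 2.36% to 30.4%, 15.1% to 33.8%, 8.04% to 32.9% and 6.47% to 37.3%. By the S phase sum it was lower in the highest than in the lowest part of each library. The H2B share was highest in the part with the least S phase RNA, at 12.8%, 14.8%, 18.2% and 19.1%, against 8.58%, 8.52%, 9.92% and 7.84% in the part with the most. The H1 share went from 22.1% to 33.2%, from 13.3% to 20.6%, from 19.7% to 29.3% and from 31.8% to 49.1%. By the G2 and M phase sum the shares went the other way from the lowest to the highest part. H2B went from 7.55% to 10.4% in NEJ634, 8.62% to 10.9% in NEJ709, 9.92% to 14.3% in NEJ723 and 10.4% to 14.2% in NEJ687, and H1 from 36.9% to 28.2%, 20.3% to 17.9%, 29.8% to 22.6% and 46.6% to 37.6%. Both splits divide the same cells, whose lists and members come from the same UMIs.

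The level per cell was spread widely. In cluster 7 the cell at the 10% point, the median cell and the cell at the 90% point had 634, 6312 and 39438 CPM in NEJ634. They had 645, 19962 and 49736 in NEJ638, 1544, 27709 and 55360 in NEJ709, 741, 8590 and 23172 in NEJ723, and 701, 7371 and 26252 in NEJ687. After each cell was thinned to 500 UMIs, 74.7% of cluster 7 cells had a member UMI in NEJ634 and 85.1% in NEJ638, with 89.3% in NEJ709, 83.0% in NEJ723 and 81.0% in NEJ687. Before thinning these shares were 97.9%, 95.7%, 100%, 99.1% and 97.7%. In cluster 9 the thinned share was 38.8%, 41.5%, 31.8% and 39.2% in NEJ634, NEJ709, NEJ723 and NEJ687. Neutrophil-like cells, which should hold little of this RNA, had 13.8% to 24.1%, and the haemoglobin-rich cluster 5 had at most 7.94%. Haemoglobin was 65.2% of the UMIs in cluster 9 and 88.6% in cluster 5, so fewer of the 500 were left for other genes. In NEJ687 the thinned share was 7.67% in cluster 5 and 18.5% in neutrophil-like cells. With haemoglobin left out of the total the order there was another. Cells over 80% haemoglobin, with clusters 1, 3 and 5 added, stood at 1421 CPM. Neutrophil-like cells stood at 418, with mitochondrial UMIs also left out. Before thinning, the median depth was 3575 to 12451 UMIs in cluster 7, 5031 to 7808 in cluster 9 and 901.0 to 3677 in neutrophil-like cells.

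Some members stood as high in other classes as in erythroid-like cells, by share or by level. Hist1h2bc made up 21.3% of the histone UMIs of hepatocyte-lineage cells in NEJ634 and 49.8% in NEJ638, with 32.9% in NEJ654, 47.7% in NEJ677, 41.6% in NEJ687 and 35.9% in NEJ709, against 1.40% to 3.79% in erythroid-like cells. Its level in hepatocyte-lineage cells was 353, 325, 332, 177, 388 and 356 CPM, within the range of its erythroid-like levels or above it. Neutrophil-like cells had 108 to 350 CPM of Hist1h2bc, and its share in free RNA was 5.90% to 27.7%. Hist1h1c made up 7.17% to 22.0% of the histone UMIs of neutrophil-like cells. Hist4h4, whose model runs far past its stem-loop, was at 69.8 CPM in endothelial-like cells of NEJ638, 28.3 in NEJ654, 19.6 in NEJ677, 19.4 in NEJ687, 10.9 (from 6 UMIs) in NEJ634 and 5.34 (from 2 UMIs) in NEJ723, and at 16.9 to 31.2 in erythroid-like cells. The erythroid-like level was 31.2 (from 7 UMIs) in NEJ638, 24.5 in NEJ634 and 22.3 in NEJ723. Endothelial-like cells were thus above it in NEJ638 and under it in NEJ634 and NEJ723. NEJ654 and NEJ677 have no erythroid-like value. The endothelial-like class was not the same in each library, since 2033 of its 2205 cells in NEJ638 were in cluster 14, led by Ackr3, Colgalt2 and Sox7. Those of NEJ654 and NEJ677 were mostly in clusters 8 and 18. Hist3h2a was at 24.0 to 39.4 CPM in endothelial-like cells and 18.2 to 50.8 in macrophage-like cells, against 18.9 to 43.3 in erythroid-like cells.

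Over all cells, members differed in how far they varied between libraries. Among the 62 members with at least 100 UMIs, the highest level of a member was 2.13 to 98.1 times its lowest, with a median of 8.56. The widest was Hist1h4m, an H4 gene, from 0.0200 CPM (1 UMI) in NEJ709 to 1.96 in NEJ723, a ratio of 98.1 with an interval of 17.3 to 3900. Its sequence is shared with Hist1h4n, so this value is uncertain. Hist1h2bl, an H2B gene, went from 0.186 CPM (4 UMIs) in NEJ654 to 7.34 in NEJ723, a ratio of 39.5 (15.4 to 146). It is uncertain too, since 70.4% of the windows at its end are shared with other genes. Hist1h1a (36.3, from 6.85 in NEJ677 to 249 in NEJ687), Hist1h2an (22.9) and Hist1h1b (21.0, from 41.4 in NEJ654 to 868 in NEJ687) came next. The member with the largest share over all cells was Hist1h2ap in NEJ634 (18.8%), NEJ654 (22.4%), NEJ709 (34.4%) and NEJ723 (18.1%), Hist1h2ae in NEJ638 (25.0%), Hist1h2bc in NEJ677 (17.6%) and Hist1h1b in NEJ687 (19.7%).

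Genes that work with clustered histones were described from lists. Of the 11 replacement variants, 3, 5, 3, 3 and 3 were at least 2-fold higher in erythroid-like cells of NEJ634, NEJ638, NEJ709, NEJ723 and NEJ687, where 14.3%, 29.2%, 14.7%, 10.7% and 13.2% of all genes were. At least 2-fold lower were 2, 2, 2, 2 and 3, where 35.6%, 32.2%, 33.2%, 45.6% and 41.5% of all genes were, and the summed fold was 1.82, 2.20, 1.57, 1.61 and 1.67. H2afx, whose protein marks DNA breaks, was 2.95, 8.47, 2.77, 3.04 and 2.94 times as high, and the H3.3 gene H3f3a 2.60, 3.76, 2.06, 2.28 and 2.18 times. H2afz (1.22 to 1.66) and H3f3b (1.27 to 1.93) stayed under 2-fold, and the linker gene H1f0 was at 0.289, 0.0707, 1.89, 0.914 and 1.22. Of 15 genes for 3′ processing of histone RNA, 2, 3, 4, 3 and 5 were at least 2-fold higher and 2, 3, 2, 0 and 1 at least 2-fold lower, against the same shares of all genes. In NEJ634 and NEJ638 the share of higher genes was under that of all genes. Slbp was among them in each library, at 331, 499, 250, 244 and 352 CPM and folds of 2.73, 4.70, 2.24, 3.93 and 3.55. Npat, which switches on these genes at S phase entry, had folds of 2.20, 0.595, 2.72, 1.41 and 2.21.

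Chaperones and the cell cycle lists were described in the same way. The shares of all genes at least 2-fold higher, 14.3%, 29.2%, 14.7%, 10.7% and 13.2%, are the background of each count. Of 15 chaperone genes 11, 6, 9, 8 and 11 were at least 2-fold higher, which in NEJ638 is near that background. A single chaperone gene, in NEJ638, was at least 2-fold lower, where 32.2% of all genes were. Their summed folds were 1.86, 1.74, 1.94, 1.43 and 2.18. Asf1b, which hands H3 and H4 to the replication fork, was 2.39, 6.14, 2.21, 4.89 and 3.90 times as high. Of the 28 S phase genes, which include Slbp, 24, 26, 20, 24 and 26 were at least 2-fold higher, with summed folds of 2.78, 5.19, 2.46, 3.47 and 3.76. Of the 26 G2 and M phase genes 25, 24, 25, 23 and 26 were, with summed folds of 3.40, 8.66, 3.93, 4.15 and 4.32. The summed fold of the clustered histone genes, 5.75, 26.7, 7.83, 5.93 and 6.66, was above that of each of these lists in all 5 libraries. Between clusters 7 and 9 the order was another. The S phase genes had summed folds of 18.5, 30.2, 23.1 and 31.9 in NEJ634, NEJ709, NEJ723 and NEJ687, above those of the clustered histone genes (13.5, 16.9, 8.86 and 9.15) in each. The chaperones, at 12.2 (NEJ709) to 16.4 (NEJ687), were above them in NEJ723 and NEJ687 and within counting error of them in NEJ634 (13.8). The 3′ processing genes had 12.9, 9.16, 8.99 and 11.2, the G2 and M phase genes 4.47, 8.03, 9.27 and 5.89, and the replacement variants 2.72 to 4.70.

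Across 95 pools of 1 library and 1 class, the genes outside the members and lists whose log2(CPM + 1) most resembled that of the summed members were Fbxo5 (r = 0.826), Mns1 (0.823), Brca1 (0.803), Knl1 (0.790), Cenpp (0.787), Kif15 (0.784), Neil3 (0.781), Ncapg (0.774), Mybl2 (0.770) and Ncapd3 (0.767). Most of these are known from DNA replication, repair or mitosis. The median r was 0.681 over the S phase list, 0.708 over the G2 and M list, 0.552 over the chaperones, 0.372 over the 3′ processing genes and 0.266 over the replacement variants, where it was -0.0305 over all 15320 genes. These values are a description, since pools share libraries, depth and cells.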

How the data were processed

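Livers were perfused, digested with collagenase IV and loaded on droplets, with a kit that counts 3′ ends. The authors deposited raw UMI counts for each gene and barcode of 7 libraries, unfiltered and not normalized. The file headers name Cell Ranger 4 and the submitters' processing notes Cell Ranger 6.0 with introns counted, and the build is not given in the sources used here. The series text speaks of single nuclei and the sample labels of single cells.

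Cells were called from the deposited counts as Cell Ranger does. Barcodes above 10% of the UMI count at the 99th percentile among the 3000 largest were taken, and those of at least 500 UMIs were added where they differed from ambient barcodes ranked 45000 to 90000 (10000 draws, adjusted p of 0.01, at most 20000 barcodes tested, a limit reached in NEJ634, NEJ709 and NEJ723). Kept cells had over 500 UMIs, of which 20% at most were mitochondrial, and doublets were scored and removed at 0.8% for each 1000 cells. Clustering (2000 variable genes, 40 components, 15 neighbours, Leiden resolution 1; scanpy 1.11.5, leidenalg 0.10.2, numpy 2.4.6, scipy 1.17.1) left out the members and the lists described. Clusters were named from 164 markers of 18 classes at a mean log2 fold of at least 1.5, a lead of 1 over the class ranked next and 3 or more markers 2-fold up at 10 CPM, limits set after the data were seen. Ambient counts were not subtracted.

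UMIs were summed by library and class in pools of at least 20 cells, with a filter of 20 UMIs over both pools for folds and a pool at 0 set to 3 UMIs. A gene was called at 2-fold. The labels gave 0 groups, so no test was run. Members, lists and classes were chosen with earlier results of these data known. Named members were the 10 highest by mean erythroid-like CPM, the 3 highest of each family, the highest of the Hist2, Hist3 and Hist4 groups, and the 5 with the widest range over libraries among those with 100 UMIs. Members whose values were printed beside these for their 3′ ends or low folds (Hist3h2a, Hist2h3c2, Hist1h2ao) were chosen after their values were seen, as was the split by polyadenylation signal. Code was tested on simulated data. Alternatives changed the calling, doublets, totals, weighting of cells, clustering, naming of clusters, filters and free RNA.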

Additional observations from a re-analysis of the deposited data

Results flagged for a closer look

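Barcodes over 500 UMIs that were not called as cells lie outside every comparison above. Their summed clustered histone level was 2490 CPM (2475 to 2504) in NEJ634, 1177 (1149 to 1206) in NEJ723 and 3723 (3577 to 3873) in NEJ687, and each was above the level in the free RNA of its library (2006, 942 and 2571). In NEJ634 there were 46799 such barcodes, and the limit of 20000 tested barcodes was reached there and in NEJ723. The level in NEJ709 was 1616, where the free RNA stood at 1607. It was under the free RNA in NEJ654 (665 against 1100) and NEJ677 (316 against 681), and NEJ638 had no such barcode.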

How the results depend on the processing

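No paired analysis was possible because the labels give no groups and no replicate numbers shared between groups. Over libraries, 16 summary values kept their place and 36 moved by more than their counting interval, and none crossed a fold of 1. The median over all cells, 2487 CPM, was 2388 with the percentile rule alone, 2399 with every barcode over 500 UMIs, 2765 without haemoglobin and mitochondrial UMIs in the total, 2152 as a mean of cells, 2509 without shared barcodes, 1762 without the highest member, 2596 with ambient counts subtracted, 1100 in the ambient profile and 972 in that profile without cells of other libraries. The median in erythroid-like cells, 12225, was 13219, 11567, 15757, 10246, 12057 and 9459 under the first 6 of these, 8746 at Leiden resolution 2, 9621 with each library clustered on its own, 7631 with unnamed cluster 1 counted as erythroid-like and 2687 with clusters 1, 3 and 5 counted. The median fold over remaining cells, 6.66, was 5.16 with every barcode, 5.69 without doublet removal, 7.46 without haemoglobin and mitochondrial UMIs, 6.82 as a mean of cells, 6.81 without shared barcodes, 6.37 without the highest member, 6.25 without unnamed clusters, 5.89 with cluster 1 counted as erythroid-like, 1.88 with clusters 1, 3 and 5 counted and 4.15 with libraries clustered on their own. With clusters 1, 3 and 5 counted NEJ709 reversed, at 0.999, and the median number of members at least 2-fold higher was 17. With libraries clustered on their own NEJ723 reversed, at 0.436, and 1 member instead of 58 was at least 2-fold higher there. The fold was above 1 in 53 of 55 values for the 5 libraries with a main value. NEJ654 and NEJ677, which had none, were at 0.281 and 0.0798 when clustered on their own. The highest member's share, 19.7%, was 20.2% over erythroid-like cells. The fold between 20 to 40% and 60 to 80% haemoglobin, 8.68, was 5.54 with libraries clustered on their own, 19.7 with haemoglobin kept in the total and 6.16 with cluster 1 added (1.52 in NEJ709), and was above 1 in 20 of 20 values. The median named member, 215 CPM, was 342 without haemoglobin and mitochondrial UMIs and 141 with libraries clustered on their own. The values without cells of other libraries, without unnamed clusters and with unnamed clusters counted as erythroid-like were chosen after seeing the data. The cause of these changes was not tested.

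Depth limits the low members, since 5 had under 100 UMIs in all libraries together. Intervals cover counting error and not the spread between mice, and erythroid-like values rest on 62 to 2903 cells of 5 libraries. A kit that starts at runs of A may record clustered histone RNA only in part, and levels of members with near-identical ends depend on how shared reads were counted.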
